A study of Mus musculus with 20 samples.

Results

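Hindlimb skin was compared between mice that received 1 radiation dose at ultra-high dose rate (FLASH, 4 libraries) and mice that received it at conventional dose rate (CONV, 3 libraries). The 7 libraries were chosen by the titles of their records, out of 20 libraries of skin and muscle in the series. All mice were wild-type C57BL/6J, an inbred strain. FLASH and CONV mice shared the source (an ElectronFlash linear accelerator), the particle (electrons), the dose (35 Gy), the site (left hindlimb) and the day of collection (day 70). Sham mice (0 Gy, 3 skin libraries) went without irradiation, and their levels are given as the unirradiated background. Age and sex were not given in the sources used here. RNA was total RNA depleted of ribosomal RNA, from 10 to 15 mg of frozen tissue, and all skin libraries belonged to batch 1 of the labels. Values are listed below in the order of the replicate numbers, and library 4 exists in the FLASH group alone.

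FLASH radiotherapy delivers a dose in pulses so brief that the whole treatment ends within a fraction of a second, whereas a conventional beam takes minutes. In animal models it is known for milder normal tissue injury at equal dose, and the comparison addresses how far the late state of the skin depends on dose rate. Late radiation injury of skin combines fibrosis (deposition and cross-linking of collagen by fibroblasts), persistent inflammation with infiltrating myeloid cells, loss of appendages, and a wound-type programme in the epidermis that turns on keratins 6, 16 and 17. In whole tissue, fewer cells of a type and less RNA per cell cannot be told apart.

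Before any result, 2 of the libraries need a remark on identity. The file under FLASH replicate 1 carries the name of a sham library, and the file under sham replicate 3 the name of a FLASH library. Groups follow the records here. Where FLASH library 1 is described below as near sham, that reading rests on the records. If the file names are right, it is itself a sham library and sham replicate 3 a FLASH library. A gene is called free of overlap only where all 3 CONV libraries lay beyond all 5 libraries that are FLASH by record or by name, so that this count is the same whichever naming is right. The Y-linked gene Uty was found in every skin library at 81.9 to 129 CPM (counts scaled to the size of the library). Because all libraries held it, Uty cannot show whether the 2 files were exchanged.

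The libraries also differed in the tissue they held. Between 24396463 and 33250762 estimated counts were assigned per skin library, and epidermal keratinocyte genes were abundant in all of them. The score of fast skeletal muscle genes, the mean of log2(CPM + 1) over 15 genes, was 6.63, 10.47, 6.70 and 3.94 in FLASH and 7.32, 7.67 and 4.57 in CONV. It ran from 2.37 to 10.37 in sham. Myh4, a myosin heavy chain of fast fibres, was at 9396 CPM in FLASH library 2 and at 3.83 CPM in FLASH library 4. The hair shaft score was 0.79, 2.87, 8.75 and 7.84 in FLASH and 8.34, 4.17 and 7.04 in CONV. Krt71, an inner root sheath keratin, had 0.0659, 158, 2704 and 2526 CPM in FLASH and 3097, 152 and 1138 CPM in CONV. On the first principal component (65.2% of the variance of the 500 most variable genes), FLASH libraries 1 and 2 lay at -67.9 and -59.0 and FLASH libraries 3 and 4 at 43.0 and 48.6. CONV libraries lay at 49.7, 4.31 and 48.7 on it, close to the upper end of the FLASH range for CONV libraries 1 and 3. The second component (16.8%) held the CONV libraries at 11.1, 55.1 and 22.1, above every FLASH and sham library.

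**Figure D1:**
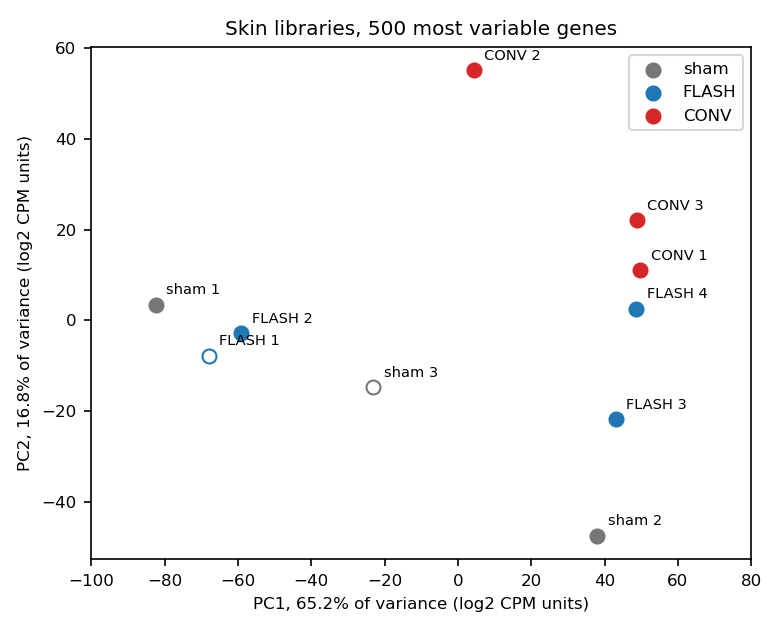
Position of the 10 skin libraries on the first (x axis, 65.2% of variance) and second (y axis, 16.8%) principal components of log2 CPM over the 500 most variable genes; open circles mark the 2 libraries whose file name belongs to another group. The 3 CONV libraries (red) lie at 11.1, 55.1 and 22.1 on the second component, above all FLASH (blue) and sham (grey) libraries, while the first component splits the FLASH group.

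No gene passed the test between FLASH and CONV skin after correction, while inflammatory, matrix and wound keratinocyte genes had lower values in FLASH skin across most of the libraries. The myeloid gene Slfn4, the neutrophil chemokine gene Cxcl2, the matrix gene Spp1 and the collagen gene Col5a1 were each lower in all 4 FLASH libraries than in any CONV library. Their CONV means were 14.2, 127, 49.2 and 3.96 times the FLASH means. Genes higher in FLASH skin than in CONV skin differed less in size, and the type I interferon gene Ifnk and the repair gene Rad51b were among them. Of 20026 genes tested with edgeR's quasi-likelihood test and Benjamini-Hochberg adjustment, 0 (0%) had an adjusted p under 0.05, in either direction. The smallest adjusted p was 0.249 in this fit and was shared by 177 genes. At an unadjusted p under 0.05, 1714 genes (8.56%) were lower and 826 (4.12%) higher in FLASH skin. Without overlap under both namings, 869 genes (4.34%) were lower and 635 (3.17%) higher. Counts of list members below are to be read against these 4 shares, because no member of any list passed the adjusted test.

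The median log2 fold change over all genes tested was -0.01 and 50.5% of the estimates were negative. Among genes at an unadjusted p under 0.05, 67.5% were lower in FLASH skin. That share was 50.0% when libraries were scaled by their upper quartile, which moved the median of all genes to 0.08. Among genes without overlap, 57.8% were lower, against 36.9% with upper quartile scaling. The 869 lower genes had a median log2 fold change of -1.11 and the 635 higher genes one of 0.49, and 824 and 523 of them were protein coding. For the lower genes, the mean of the FLASH libraries was below that of the sham libraries in 173 of the 869. For the higher genes it was below the sham mean in 460 of the 635, against 9928 of all 20026 genes. Sham replicate 3 took part in the overlap rule that chose the lower and higher genes, so their sham mean was partly set by that choice. The count over all genes is therefore not like for like.

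A pair of libraries lay closest to the other group. FLASH library 4 was the highest FLASH library in 609 of the 869 lower genes (70.1%, against 23.1% of all genes tested). CONV library 1 was the lowest CONV library in 597 of them (68.7%, against 30.0% of all). For the 635 higher genes, FLASH library 4 was the lowest of its group in 317 (49.9%) and CONV library 1 the highest of its group in 403 (63.5%). Without CONV replicate 1, edgeR called 117 genes, 116 of them lower in FLASH. Without FLASH replicate 4 it called 0, with a smallest adjusted p of 0.0545. DESeq2 called 457 genes on all libraries (399 lower, 58 higher) and limma-voom with sample weights called 0.

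**Figure D2:**
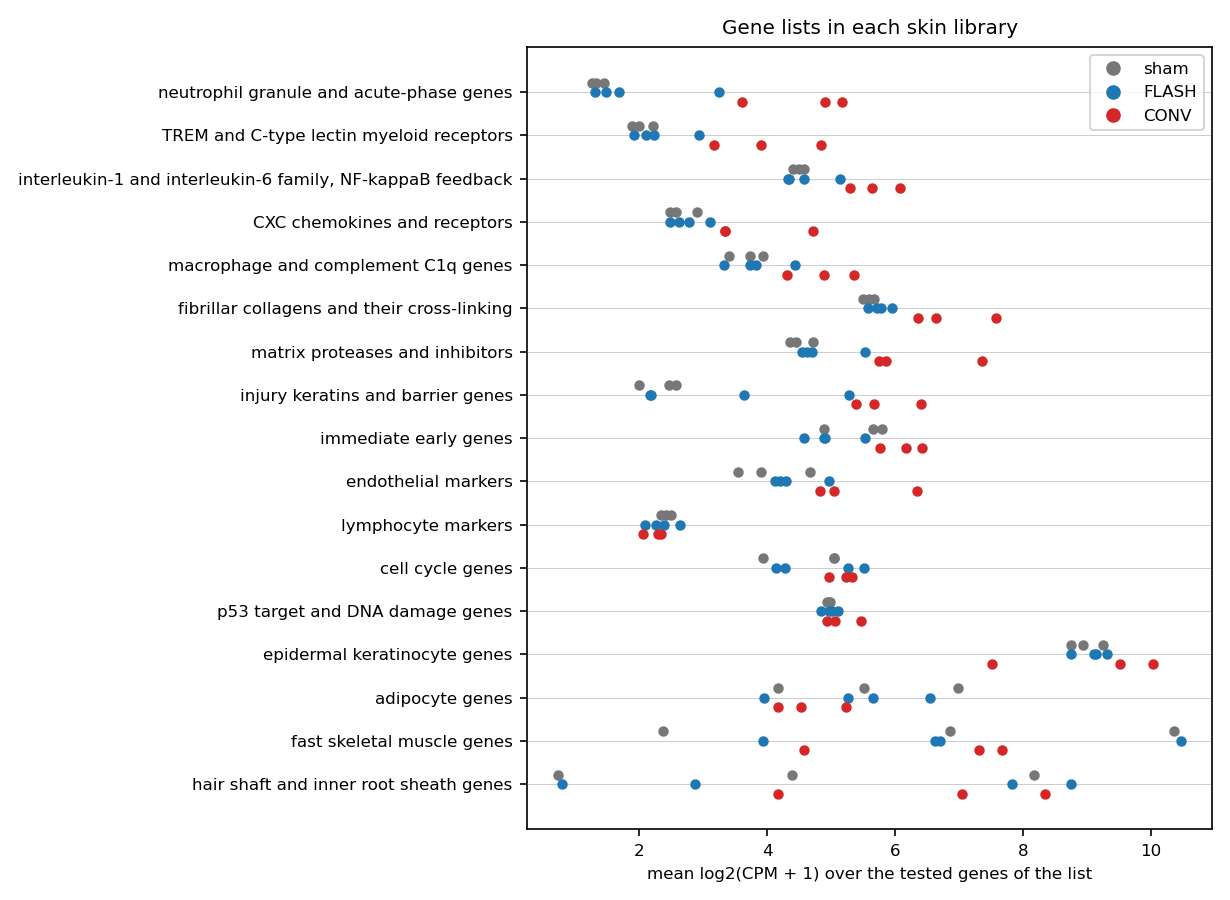
Mean log2(CPM + 1) over the tested genes of 17 gene lists (rows) in each skin library (points: sham grey, FLASH blue, CONV red). For neutrophil, TREM and C-type lectin, collagen and injury keratin lists the 3 CONV points lie to the right of all FLASH points, whereas fast muscle and hair shaft scores spread over several units within each group.

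The 10 lower protein-coding genes with the smallest p were led by genes of myeloid cells. Slfn4 (ENSMUSG00000000204, chromosome 11, 83175186 to 83190216, plus strand), a Schlafen gene of the monocyte and granulocyte lineage, had 2.90, 3.07, 3.32 and 8.69 CPM in FLASH. In CONV it had 17.2, 81.1 and 92.5 CPM, and in sham 3.08, 1.83 and 2.43 CPM. The groups did not overlap, and FLASH libraries 1 to 3 lay near the sham level with library 4 above it. The fitted log2 fold change (FLASH minus CONV, with its SE) was -3.82 ± 0.61 (95% confidence interval -5.18 to -2.46, adjusted p = 0.249 by edgeR). Plaur (ENSMUSG00000046223, chromosome 7, 24462484 to 24475968, plus strand) encodes the urokinase receptor, which localises plasmin formation on cell surfaces. It had 4.52, 4.27, 5.41 and 14.5 CPM in FLASH, 25.6, 74.1 and 115 CPM in CONV and 3.42 to 4.18 CPM in sham. Its groups were again separate, with FLASH library 4 nearest to CONV library 1 (-3.31 ± 0.57).

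Several of these genes encode myeloid surface receptors. Clec4e (ENSMUSG00000030142, chromosome 6, 123281789 to 123289870, minus strand) encodes Mincle, a C-type lectin that senses microbial glycolipids and products of dying cells. It had 1.55, 2.36, 1.96 and 6.499 CPM in FLASH and 13.4, 33.1 and 65.2 CPM in CONV, against 1.39 to 1.76 CPM in sham (-3.59 ± 0.61). FLASH library 4 lay above the other FLASH libraries and below all of CONV. Treml4 (ENSMUSG00000051682, chromosome 17, 48264295 to 48275360, plus strand) and Trem3 (ENSMUSG00000041754, chromosome 17, 48247777 to 48258841, plus strand) are neighbouring genes of the TREM family of activating receptors. Treml4 held 2, 2, 3 and 6 estimated counts in FLASH, 21, 88 and 106 in CONV, and 0 in each sham library. Trem3 held 0 counts in FLASH libraries 1 to 3, 5 in library 4 and 21, 65 and 132 in CONV. A count of 0 allows 3 counts, which is 0.0949 to 0.112 CPM in those 3 FLASH libraries, so both genes were near the limit of detection in FLASH skin. Their fitted values were -4.67 ± 0.67 and -5.93 ± 1.05, the latter depending on how zeros are treated. Cd300lf (ENSMUSG00000047798, chromosome 11, 115116214 to 115133992, minus strand), a myeloid receptor with inhibitory motifs, averaged 4.39 ± 2.18 CPM (SD, n = 4) in FLASH and 34.6 ± 25.8 CPM (n = 3) in CONV. Sirpb1b (ENSMUSG00000095028, chromosome 3, 15495751 to 15575065, minus strand) averaged 1.56 ± 0.298 and 8.17 ± 5.48 CPM. It belongs to a cluster of near-identical copies, as do Schlafen genes to a lesser degree, so the split of reads among copies makes its value uncertain.

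The remaining lower genes were Cyp4f18, Csrnp1 and Adam30. Cyp4f18 (ENSMUSG00000003484, chromosome 8, 71988482 to 72009626, minus strand) is a neutrophil enzyme that inactivates leukotriene B4. It had 0.560, 0.937, 0.917 and 2.00 CPM in FLASH and 3.97, 14.3 and 15.3 CPM in CONV (-3.33 ± 0.54). Csrnp1 (ENSMUSG00000032515, chromosome 9, 119971163 to 119984658, minus strand), a nuclear protein gene of the immediate early class, had 19.3, 22, 16.9 and 27.1 CPM in FLASH and 39.2, 116 and 76.6 CPM in CONV (-1.86 ± 0.32). Its sham libraries, at 24.5 to 26.7 CPM, lay inside the FLASH range. Adam30 (ENSMUSG00000043468, chromosome 3, 98160630 to 98164169, plus strand), a membrane metalloproteinase-type gene best known from testis, was rare, with 2 to 8 estimated counts per FLASH library and 17, 32 and 96 in CONV. All 10 genes were free of overlap, and they were chosen by the size of p.

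**Figure D3:**
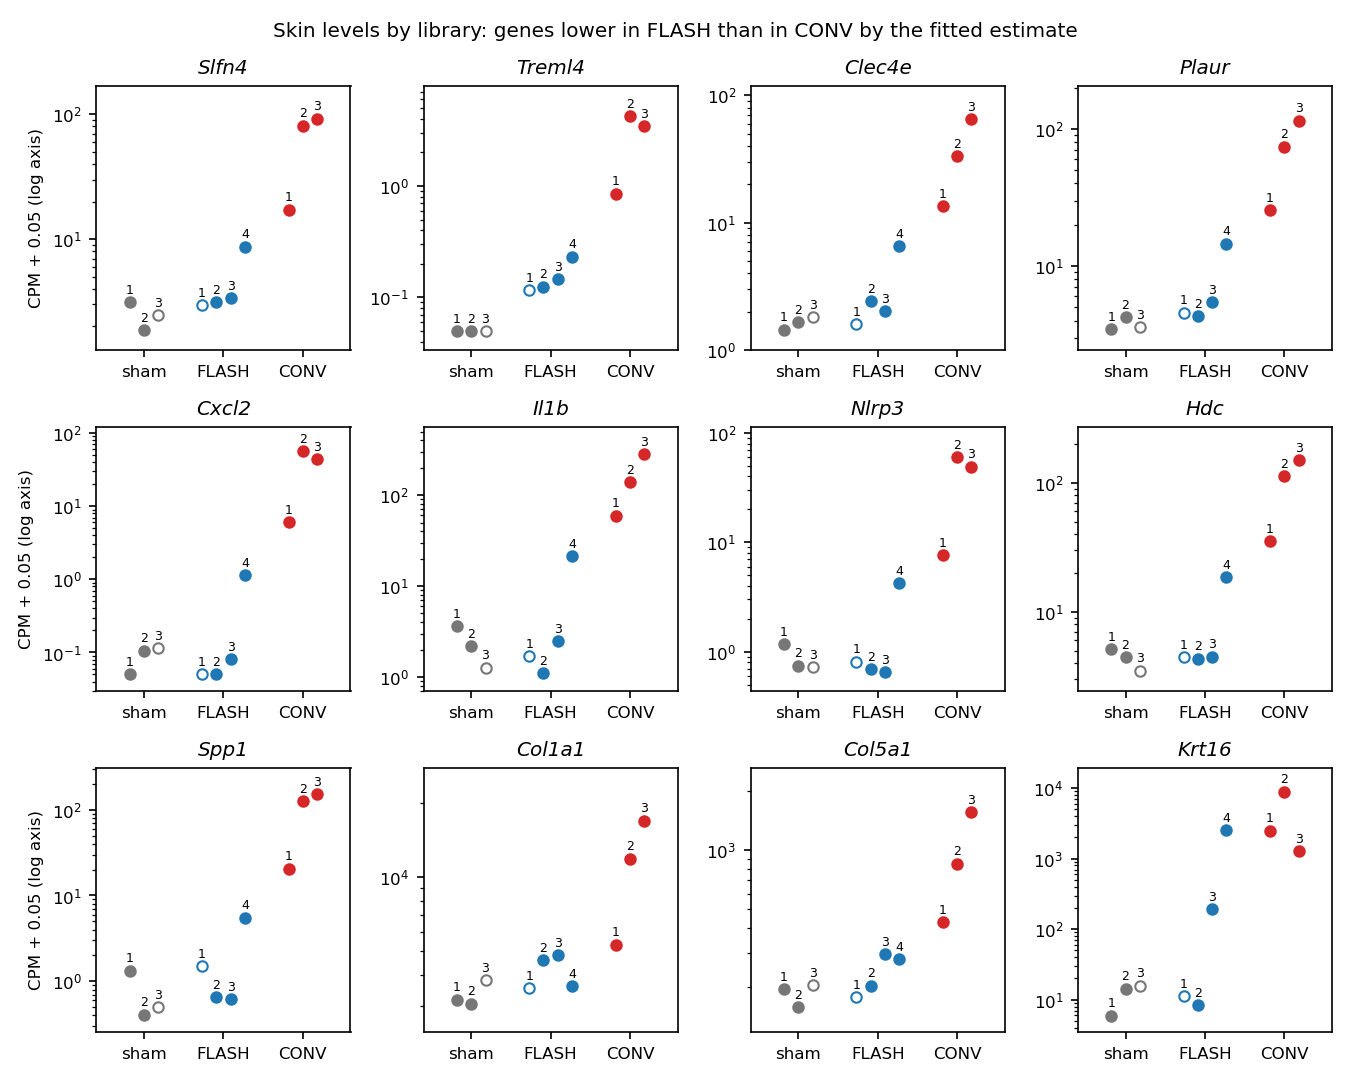
CPM + 0.05 on a log axis (y) of 12 genes with lower estimates in FLASH than in CONV, 1 point per library with its replicate number, by group (x axis: sham, FLASH, CONV; open circles mark files named for another group). FLASH libraries 1 to 3 lie near sham for the myeloid genes, FLASH library 4 lies between them and CONV, and CONV library 1 is the lowest CONV library for all 12 genes but Krt16.

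The promoters of 3 inflammatory genes are shown because each of these genes was lower in FLASH skin without overlap and holds the letters of an NF-kappaB motif, the factor through which interleukin-1 and Toll-like receptors act. Each run gives the 250 bases before the RefSeq start on GRCm38.p6, with the motif in capitals. Cxcl2 lies at chr5:90903649-90903898, Cxcl3 at chr5:90785851-90786100 and Nlrp3 at chr11:59541319-59541568, all on the plus strand.
Cxcl2: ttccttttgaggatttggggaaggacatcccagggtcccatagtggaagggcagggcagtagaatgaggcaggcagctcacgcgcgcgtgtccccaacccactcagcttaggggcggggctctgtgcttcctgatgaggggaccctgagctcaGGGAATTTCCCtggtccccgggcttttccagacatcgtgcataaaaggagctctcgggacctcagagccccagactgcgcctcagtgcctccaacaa
Cxcl3: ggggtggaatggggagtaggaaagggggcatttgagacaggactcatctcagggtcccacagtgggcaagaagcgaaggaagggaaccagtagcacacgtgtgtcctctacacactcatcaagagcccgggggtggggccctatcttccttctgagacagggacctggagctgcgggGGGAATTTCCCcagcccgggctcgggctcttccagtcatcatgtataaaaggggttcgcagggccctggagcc
Nlrp3: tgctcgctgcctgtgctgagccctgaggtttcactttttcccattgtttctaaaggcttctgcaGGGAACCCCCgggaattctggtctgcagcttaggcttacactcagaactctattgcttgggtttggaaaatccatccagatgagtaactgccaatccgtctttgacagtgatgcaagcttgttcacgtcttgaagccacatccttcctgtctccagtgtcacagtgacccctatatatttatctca
The motif lay at -97 to -88 (plus strand) and -96 to -87 (minus strand) in Cxcl2, at -73 to -64 and -72 to -63 in Cxcl3, and at -186 to -177 on both strands in Nlrp3. Over all 32851 promoter windows of that length in the table, 7.25% held the NF-kappaB motif, 6.75% the AP-1 motif TGANTCA and 36.8% the C/EBP motif TTNNGNAA, on either strand. Of the 10 lower genes named above 8 had a window, of which 0 held the NF-kappaB motif, 2 the AP-1 motif (Slfn4 and Plaur) and 7 the C/EBP motif. Of the 10 higher genes described further on, 7 had a window, of which 0, 0 and 3 held them. Over larger sets the shares were near the background. Of 13723 tested genes with a window, 8.28% held the NF-kappaB motif, 5.49% the AP-1 motif and 31.5% the C/EBP motif. Of the 629 with a window that were lower in FLASH skin without overlap, 9.06%, 6.68% and 33.7% held them. The 3 promoters printed were picked for their motif, so they do not stand for the lower genes. A match is a description of the sequence and not a bound site.

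Genes of CXC chemokines, only some of which attract neutrophils, and of their receptors were listed together. By estimate, 18 of 20 genes tested were lower in FLASH skin (median log2 fold change -1.16). Of these, 10 had an unadjusted p under 0.05 and 0 were higher at that level. Only 3 of the 20 were free of overlap (15%, against 4.34% of all genes), and all 3 are described here. FLASH library 4 reached the lowest CONV library in 16 of the 20. Cxcl2, a main neutrophil attractant (ENSMUSG00000058427), had 0, 0, 0.0316 and 1.09 CPM in FLASH and 5.95, 56.9 and 44.3 CPM in CONV. That corresponds to 0, 0, 1 and 36 estimated counts against 156, 1200 and 1379. Sham skin held 0 to 2 counts, so FLASH libraries 1 to 3 were at the sham level and library 4 was apart from them (-6.92 ± 1.44, adjusted p = 0.249 by edgeR). Cxcl3, a close relative of Cxcl2, had 0.560, 0.600, 0.0949 and 1.37 CPM in FLASH and 1.68, 18.1 and 20.4 CPM in CONV, so that CONV library 1 lay only just above FLASH library 4. Cxcl5, made by epithelium in response to inflammation, overlapped between groups, at 13.7, 9.86, 8.38 and 22.9 CPM against 71.0, 17.1 and 277 CPM. Cxcr4, the receptor of Cxcl12 on many leukocytes, averaged 7.06 ± 3.76 CPM in FLASH and 32.6 ± 12.3 CPM in CONV, with no overlap (-2.20 ± 0.41). Its ligand Cxcl12, the most abundant gene of the list, overlapped, with 173, 128, 153 and 207 CPM in FLASH and 294, 107 and 647 CPM in CONV. The median of the list was -0.32 without CONV replicate 3.

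Genes of CC chemokines, which attract monocytes and lymphocytes among other cells, and of their receptors were mixed. By estimate 18 of 29 were lower (median -0.72), with 8 lower and 3 higher at an unadjusted p under 0.05. Ccl3 and Ccl4, made by activated macrophages, had 1, 1, 2 and 20, and 4, 1, 3 and 15 estimated counts in FLASH. In CONV they had 14, 615 and 255, and 12, 639 and 171 counts, so that CONV library 1 was at the level of FLASH library 4 for both. Their estimates of -6.02 ± 1.34 and -6.0 ± 1.31 therefore rest on CONV libraries 2 and 3. Ccr2, the receptor of inflammatory monocytes, had 39.4, 25.0, 27.7 and 60.3 CPM against 36.9, 59.3 and 118 CPM, with overlap. The median of this list was -0.08 without CONV replicate 3.

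Genes of the interleukin-1 and interleukin-6 families and of NF-kappaB feedback were lower by estimate in 35 of 36 (median -0.82), with 21 at an unadjusted p under 0.05 and 4 free of overlap. Il1b, the main secreted product of activated inflammasomes, had 1.65, 1.05, 2.44 and 21.1 CPM in FLASH and 59.5, 140 and 284 CPM in CONV. Sham skin had 3.57, 2.13 and 1.21 CPM, close to FLASH libraries 1 to 3 (-4.61 ± 1.10). Nlrp3, the inflammasome sensor that leads to cleavage of interleukin-1 beta, had 0.758, 0.637, 0.601 and 4.19 CPM in FLASH and 7.59, 60.2 and 48.96 CPM in CONV (-4.64 ± 0.89). For both genes all of CONV exceeded all of FLASH, and FLASH library 4 was the exception within its group. Tnfrsf1b, a receptor of tumour necrosis factor, met at the border, with 33.9 CPM in FLASH library 4 and 33.7 CPM in CONV library 1 (-1.78 ± 0.43).

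Neutrophil granule and acute-phase genes had the most negative median among the 33 lists described, -2.95. By estimate 20 of 21 were lower, 14 at an unadjusted p under 0.05, and 10 were free of overlap (47.6% of the list, against 4.34% of all genes). Granule protein genes did not all take part. Camp, Mpo and Prtn3, all of low level, overlapped with estimates of -0.31, 0.10 and -0.12. Ngp had -2.95 ± 0.86, also with overlap, and Elane, Ctsg and Ltf had too few counts to be tested. The calcium-binding alarmin genes S100a8 and S100a9, singled out after their values were seen, are typical of neutrophils and of stressed epidermis. S100a8 had 0.198, 0.150, 2.12 and 32.3 CPM in FLASH and 54.6, 360 and 198 CPM in CONV. S100a9 had 0.0659, 0.0375, 0.633 and 11.1 CPM in FLASH and 23.9, 121 and 112 CPM in CONV. Both were separate between groups, with FLASH library 4 far above the rest of its group. The collagenase gene Mmp8 averaged 0.631 ± 0.502 CPM in FLASH and 8.64 ± 6.97 CPM in CONV (-3.76 ± 0.73). Saa3, an acute-phase apolipoprotein of macrophages and epithelium, had 6.40, 6.64, 9.40 and 50.1 CPM in FLASH and 202, 102 and 1313 CPM in CONV, with sham at 4.43 to 6.14 CPM (-4.89 ± 1.08). Without FLASH replicate 4 the list's median was -4.45.

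In the list of TREM and C-type lectin receptors all 23 tested genes were lower by estimate (median -2.05), 22 at an unadjusted p under 0.05, and 15 were free of overlap. FLASH library 4 reached the lowest CONV library in 7 of the 23. Trem1, an amplifier of neutrophil and monocyte activation, had 0.560, 0.412, 0.664 and 4.04 CPM in FLASH and 11.7, 32.0 and 60.4 CPM in CONV. Tyrobp, the signalling adaptor of the TREM family, had 5.11, 3.94, 3.13 and 8.32 CPM in FLASH and 13.8, 19.2 and 44.1 CPM in CONV (-2.33 ± 0.44). Trem2, of lipid-laden macrophages, differed less, with 6.89, 7.31, 7.59 and 9.45 CPM against 10.5, 20.5 and 16.4 CPM (-1.01 ± 0.24). These genes were added after their values were seen. Fcgr2b, the inhibitory antibody receptor and the most abundant gene of the list, overlapped at 81.0 CPM in FLASH library 4 and 77.1 CPM in CONV library 1. Among 8 Schlafen genes, 6 were lower by estimate (median -0.91) and 3 free of overlap, with Slfn2 at 10.3, 8.73, 7.34 and 14.3 CPM in FLASH and 15.3, 42.4 and 49.6 CPM in CONV. The median of the TREM list was -1.08 without CONV replicate 3, and that of the Schlafen genes -0.48.

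Macrophage and complement C1q genes were lower by estimate in 19 of 20 (median -1.16, or -0.48 without CONV replicate 3), with 10 at an unadjusted p under 0.05 and 4 free of overlap. Cd14, the co-receptor for bacterial lipopolysaccharide, had 1.98, 2.70, 1.46 and 8.59 CPM in FLASH and 12.0, 123 and 76.5 CPM in CONV (-4.25 ± 0.82). C1qa, a subunit of the first complement component made by macrophages, had 17.6, 20.02, 12.0 and 35.5 CPM in FLASH and 39.1, 78.4 and 110 CPM in CONV. Lyz2, the myeloid lysozyme gene, had 102, 103, 67.3 and 166 CPM in FLASH and 184, 250 and 424 CPM in CONV. In each of these 3 genes the CONV libraries were above the FLASH libraries and FLASH library 4 was the nearest to them. Most of the list overlapped, and FLASH library 4 reached the lowest CONV library in 16 of the 20. C1qb had 40.4 CPM in FLASH library 4 and 38.3 CPM in CONV library 1, and C1qc 37.2 and 34.2 CPM. The macrophage genes Adgre1, Mrc1, Cd163 and Cx3cr1 overlapped too (estimates -0.71, -0.63, -0.49 and -0.16).

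Other immune cell genes did not show that order. Lymphocyte markers had a median of 0.18, with 4 of 13 lower by estimate and 1 higher at an unadjusted p under 0.05. That gene was Cd3e, part of the T cell receptor complex, with 20.01, 16.3, 6.96 and 7.23 CPM in FLASH and 6.56, 7.82 and 5.14 CPM in CONV. Only FLASH libraries 1 and 2 stood above CONV, and the list's median was -0.04 without FLASH replicate 1. Genes of MHC class II and dendritic cells had a median of -0.04, whose sign differed between settings. Cd74, the invariant chain, was at 307 ± 85.8 CPM in FLASH and 305 ± 113 CPM in CONV (log2 fold change 0.01, 95% confidence interval -0.66 to 0.68). Cd207, the langerin of epidermal Langerhans cells, was higher in FLASH without overlap, at 8.18, 7.91, 5.25 and 4.28 CPM against 3.05, 3.65 and 0.932 CPM (1.34 ± 0.46, adjusted p = 0.316 by edgeR). Itgae, an integrin chain that binds leukocytes to epithelium, was the other gene above CONV without overlap, at 9.18 to 11.4 CPM against 7.54 to 8.62 CPM (0.35 ± 0.19).

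Of 7 mast cell genes, Hdc, which makes histamine and is also expressed by immature neutrophils, was the only one at an unadjusted p under 0.05. Hdc had 4.38, 4.27, 4.43 and 18.4 CPM in FLASH and 35.3, 112 and 150 CPM in CONV (-3.65 ± 0.66). The mast cell chymase gene Cma1 overlapped, with 4.81, 4.05, 5.88 and 18.4 CPM in FLASH and 11.6, 13.3 and 21.6 CPM in CONV. FLASH library 4 was high for both. Interferon-stimulated genes were lower by estimate in 21 of 25 (median -0.89), 12 of them at an unadjusted p under 0.05, yet only 1 of them was free of overlap. Oas3, which makes the activator of RNase L, had 7.62, 7.57, 7.28 and 6.83 CPM in FLASH and 7.67, 19.999 and 21.2 CPM in CONV, so CONV library 1 was at the FLASH level.

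Fibrillar collagen genes had the largest share of members without overlap among the 33 lists. Of 26 genes of fibrillar collagens and their cross-linking, 25 were lower by estimate (median -1.34), 20 at an unadjusted p under 0.05, and 18 were free of overlap (69.2%, against 4.34% of all genes). Col1a1 (ENSMUSG00000001506, chromosome 11, 94936224 to 94953042, plus strand), the main chain of type I collagen, had 3545, 4610, 4832 and 3615 CPM in FLASH. It had 5325, 11876 and 16936 CPM in CONV and 3191, 3069 and 3816 CPM in sham. FLASH and CONV were separate for Col1a1, and FLASH libraries 2 and 3, not library 4, were the highest of their group (-1.46 ± 0.34). Col3a1 (ENSMUSG00000026043, chromosome 1, 45311538 to 45349706, plus strand), of type III collagen, had 2322, 2526, 3552 and 3124 CPM in FLASH and 4332, 10218 and 13748 CPM in CONV (-1.71 ± 0.36). Per transcript length, mean levels were 1468 ± 211 and 1424 ± 263 TPM for Col1a1 and Col3a1 in FLASH (SD, n = 4), and 3533 ± 1963 and 3940 ± 2014 TPM in CONV (SD, n = 3).

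The smallest p of the collagen list belonged to type V collagen, which starts and limits collagen fibrils. Col5a1 (ENSMUSG00000026837, chromosome 2, 27886425 to 28039514, plus strand) had 177, 204, 295 and 279 CPM in FLASH, 429, 852 and 1557 CPM in CONV and 158 to 205 CPM in sham (-1.99 ± 0.38). Col5a2 had 159, 139, 218 and 285 CPM in FLASH and 415, 710 and 1420 CPM in CONV (-2.08 ± 0.41). For both, FLASH libraries 1 and 2 were near sham and libraries 3 and 4 somewhat higher. The cross-linking and chaperone genes Lox, Loxl2 and Serpinh1, added after their values were seen, had the same order of groups with less distance. Lox, a lysyl oxidase, had 112, 78.9, 99.8 and 95.5 CPM in FLASH and 146, 141 and 470 CPM in CONV. Loxl2 had 86.1, 78.5, 92.3 and 107 CPM against 144, 112 and 624 CPM, and Serpinh1, the collagen chaperone, 73.2, 85.5, 99.5 and 98.1 CPM against 144, 142 and 382 CPM. In these 3 genes CONV library 3 was well above the other CONV libraries. Related genes of the list varied. Loxl1, Loxl3 and Plod3 were free of overlap, but Loxl4, Plod1 and Plod2 were not (estimates -0.49, -0.64 and -1.20). Pcolce2, which enhances procollagen processing, was higher by estimate (0.86 ± 0.49). Col1a2, the second chain of type I collagen, was at 2169 to 2892 CPM in FLASH and 3121 to 8862 CPM in CONV. The median of the list was -0.72 without CONV replicate 3 and -1.61 without CONV replicate 1.

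Basement membrane and other collagens were lower by estimate in 16 of 20 (median -1.08), with 11 at an unadjusted p under 0.05 and 7 free of overlap. Col6a3, of the beaded filament collagen VI, had 154, 195, 291 and 458 CPM in FLASH and 594, 671 and 2188 CPM in CONV (-2.07 ± 0.50). Col17a1, a hemidesmosome collagen of basal keratinocytes, had 1472 ± 626 CPM in FLASH and 1183 ± 710 CPM in CONV (log2 fold change 0.32, 95% confidence interval -0.67 to 1.30).

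Matricellular genes, which encode secreted proteins that modulate cell contact with matrix, were lower by estimate in 28 of 32 (median -1.10), 19 at an unadjusted p under 0.05 and 9 free of overlap. Spp1 (ENSMUSG00000029304, chromosome 5, 104435118 to 104441050, plus strand), which encodes osteopontin, had 1.45, 0.600, 0.569 and 5.47 CPM in FLASH and 20.5, 126 and 152 CPM in CONV (-5.61 ± 1.02). Sham skin had 1.28, 0.360 and 0.447 CPM, so that FLASH libraries 1 to 3 were within or just above the sham range. Fbln1, a fibulin of elastic and basement membrane matrix, had 33.6, 30.8, 41.3 and 49.5 CPM in FLASH and 61.6, 92.7 and 104 CPM in CONV (-1.15 ± 0.21). Tnc, a tenascin of wounds and hair follicle mesenchyme, ranged widely, with 16.0, 20.4, 203 and 950 CPM in FLASH and 2167, 517 and 9751 CPM in CONV, and overlapped.

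Matrix proteases and their inhibitors were lower by estimate in 19 of 22 (median -1.36), 15 at an unadjusted p under 0.05 and 9 free of overlap. Mmp2, the gelatinase of fibroblasts, had 180, 158, 213 and 309 CPM in FLASH and 534, 389 and 1512 CPM in CONV (-1.92 ± 0.44). Mmp3, stromelysin 1, had 20.6, 17.8, 11.3 and 53.1 CPM in FLASH and 92.6, 73.4 and 836 CPM in CONV. Both were separate between groups, with FLASH library 4 and CONV library 3 the highest of their groups. Mmp3 was added after its values were seen.

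Genes of the TGF-beta pathway, the classical inducer of fibrosis, stood out less, with 22 of 26 lower by estimate but a median of -0.29, and 4 at an unadjusted p under 0.05. The ligand gene Tgfb1 had 37.3, 33.1, 39.4 and 47.1 CPM in FLASH and 51.4, 69.1 and 122 CPM in CONV, without overlap (-1.05 ± 0.29, adjusted p = 0.270 by edgeR). Inhba, the activin A subunit, overlapped, with 12.2, 16.3, 23.7 and 73.7 CPM in FLASH and 94.9, 66.4 and 429 CPM in CONV (-2.64 ± 0.77). Among 12 pericyte, smooth muscle and myofibroblast genes the median was -0.16, and 2 were lower at an unadjusted p under 0.05. One of them was Pdgfrb, the receptor of pericytes and fibroblasts, at 40.1 ± 9.75 CPM in FLASH and 138 ± 110 CPM in CONV (-1.79 ± 0.43).

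All 18 endothelial markers were lower by estimate (median -1.03), 8 of them at an unadjusted p under 0.05 and 4 free of overlap. Vcam1, an adhesion molecule that inflamed vessels display to leukocytes, had 13.9, 10.8, 10.7 and 14.4 CPM in FLASH and 22.1, 25.1 and 43.0 CPM in CONV (-1.27 ± 0.25). Tie1, a receptor restricted to endothelium, had 16.3, 14.2, 15.8 and 24.2 CPM in FLASH and 27.2, 49.1 and 73.4 CPM in CONV (-1.50 ± 0.35). Pecam1, of endothelial junctions and the most abundant marker, overlapped, with 65.3, 71.3, 55.8 and 107 CPM against 98.8, 95.5 and 267 CPM. The median of these markers was -0.39 without CONV replicate 3.

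The epidermis differed between its baseline genes and its injury genes. Of 16 genes of normal epidermal layers, 10 were lower by estimate and the median was -0.29, which was 0.12 without CONV replicate 2. The epidermal score was 9.51, 10.03 and 7.52 in CONV, so CONV library 3 had the lowest epidermal score of the skin libraries. Krt14, of basal keratinocytes, had 1022, 1006, 1658 and 4076 CPM in FLASH and 3961, 18398 and 2730 CPM in CONV, with overlap (-2.11 ± 0.73, adjusted p = 0.319 by edgeR). Trp63, the transcription factor that maintains stratified epithelium, had 717, 671, 499 and 555 CPM in FLASH and 527, 355 and 396 CPM in CONV, also with overlap (0.52 ± 0.18).

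Injury keratins and barrier genes were lower by estimate in 21 of 22 (median -2.45), with 9 at an unadjusted p under 0.05 and 6 free of overlap. Krt16, a keratin of wounded and hyperproliferative epidermis, had 11.1, 8.40, 193 and 2542 CPM in FLASH, 2505, 8918 and 1263 CPM in CONV and 5.89 to 15.8 CPM in sham. FLASH library 1, whose file carries a sham name, and FLASH library 2 were at the sham level. Library 3 stood between, and library 4 lay inside the CONV range (-2.62 ± 1.65, 95% confidence interval -6.34 to 1.11). Krt6a, the partner keratin, had 78.4, 61.4, 445 and 2556 CPM in FLASH and 2722, 6046 and 2646 CPM in CONV. It was just free of overlap, with the same graded order within FLASH. Krt17, also added after its values were seen, had 262, 214, 674 and 872 CPM in FLASH and 890, 966 and 1147 CPM in CONV. Of 6 epidermal growth factor receptor ligands in this list, Hbegf and Areg were free of overlap and the other 4 were not. Hbegf had 3.53, 5.59, 8.76 and 25.7 CPM in FLASH and 64.4, 75.4 and 84.3 CPM in CONV (-2.77 ± 0.62). Areg had 0.989, 1.87, 4.56 and 10.6 CPM in FLASH and 40.0, 18.4 and 28.2 CPM in CONV (-2.68 ± 0.75). Without FLASH replicate 4, the median of this list was -4.32. In the hair shaft list and the hair-linked keratins FLASH libraries 3 and 4 were also the higher ones, as given above. A fit that included a hair shaft covariate gave a median of -2.83 for the injury keratin list. The hair score came from the same libraries and was itself split within FLASH, so that fit cannot separate hair from group. The part of hair in the keratin values was not tested.

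Among stress genes, immediate early genes had 23 of 24 members lower by estimate (median -1.12), 14 at an unadjusted p under 0.05, and 12 free of overlap (50.0%, against 4.34% of all genes). Ier3, an early response gene that modulates NF-kappaB and survival, had 16.7, 11.3, 23.2 and 30.6 CPM in FLASH and 42.9, 121 and 123 CPM in CONV (-2.23 ± 0.42). Fosl2, an AP-1 subunit and the most abundant of the list, had 275, 303, 414 and 386 CPM in FLASH and 423, 520 and 650 CPM in CONV (-0.62 ± 0.22). The AP-1 gene Fos, added after its values were seen, had 12.1, 28.0, 14.1 and 52.8 CPM in FLASH and 71.7, 198 and 97.5 CPM in CONV. Sham skin had 357, 130 and 23.1 CPM of Fos, so the highest sham library was above every CONV library and the lowest was inside the FLASH range. The same held for Egr1, a zinc finger gene, at 60.6 to 154 CPM in FLASH, 167 to 203 CPM in CONV and 90.3 to 423 CPM in sham. Junb, by contrast, had 63.5 to 94.1 CPM in sham, below CONV (148 to 284 CPM) and inside the FLASH range (40.1 to 112 CPM). Early response genes also react to the handling of tissue, whose part in these values was not tested.

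Genes of the direct response to DNA damage were near balance. Of 26 p53 target and DNA damage genes, 16 were lower by estimate (median -0.16), 5 lower and 3 higher at an unadjusted p under 0.05. Cdkn1a, the cell cycle inhibitor p21 and the best known p53 target, had 169, 163, 208 and 205 CPM in FLASH and 228, 344 and 157 CPM in CONV. These overlapped, with a log2 fold change of -0.38 and a 95% confidence interval of -1.02 to 0.25. Btg2, an antiproliferative p53 target that is also an early response gene, had 54.2, 53.9, 52.99 and 62.5 CPM in FLASH and 87.5, 142 and 99.0 CPM in CONV, without overlap (-0.97 ± 0.21). Senescence inhibitors and secreted factors were lower by estimate in 20 of 22 (median -0.48), 4 lower and 1 higher at an unadjusted p under 0.05. Csf3, the granulocyte growth factor, had 0.198, 0.187, 0.348 and 0.911 CPM in FLASH and 2.10, 4.93 and 12.3 CPM in CONV (-3.94 ± 0.73). Igfbp7, a secreted binding protein, met at the border with 70.8 CPM in FLASH library 4 and 69.0 CPM in CONV library 1. Of 20 cell cycle genes, 19 were lower by estimate and none had an unadjusted p under 0.05 (median -0.27). E2f1 and Mcm3, which drive entry into DNA replication, had estimates of -0.47 ± 0.27 and -0.59 ± 0.43. Mki67, the proliferation marker, was at 239 ± 143 CPM in FLASH and 247 ± 69.2 CPM in CONV, with an estimate of -0.05 whose sign differed between settings.

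Oxidant and antioxidant genes were lower by estimate in 25 of 26 (median -0.78), 12 at an unadjusted p under 0.05 and 5 free of overlap. Cyba, a membrane subunit of the phagocyte NADPH oxidase, had 6.73, 6.41, 6.45 and 9.72 CPM in FLASH and 10.3, 21.99 and 32.6 CPM in CONV (-1.56 ± 0.35). Nos2, inducible nitric oxide synthase, had 1.68, 0.975, 0.475 and 0.881 CPM in FLASH and 1.03, 14.5 and 17.8 CPM in CONV, with CONV library 1 inside the FLASH range. Of 18 hypoxia and glycolysis genes, 14 were lower by estimate (median -0.73, or -0.29 without CONV replicate 2) and 7 at an unadjusted p under 0.05. Ndrg1, a hypoxia-induced gene, averaged 116 ± 23.1 CPM in FLASH and 200 ± 41.7 CPM in CONV, and the glycolytic gene Eno1 269 ± 128 and 575 ± 236 CPM. Prostaglandin and leukotriene genes had a median of -0.06. Ptgs2, the inducible cyclooxygenase, was nevertheless low in FLASH libraries 1 to 3, at 6.46, 8.02 and 4.40 CPM, with 33.9 CPM in library 4 and 98.2, 85.5 and 337 CPM in CONV (-3.72 ± 0.79). Pla2g7, which degrades platelet-activating factor, had 7.75, 11.1, 10.7 and 22.6 CPM in FLASH and 26.4, 39.2 and 79.8 CPM in CONV (-1.90 ± 0.49).

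The 10 higher protein-coding genes with the smallest p were of low abundance, with FLASH means of 1.30 to 7.96 CPM. Ifnk (ENSMUSG00000042993, chromosome 4, 35152056 to 35154005, plus strand), the type I interferon of keratinocytes, had 5.54, 4.65, 2.91 and 2.13 CPM in FLASH. It had 1.56, 1.04 and 1.25 CPM in CONV and 5.14, 5.12 and 4.82 CPM in sham. FLASH libraries 1 and 2 were at the sham level, libraries 3 and 4 lay between sham and CONV, and no FLASH library reached CONV (1.56 ± 0.34, 95% confidence interval 0.79 to 2.33, adjusted p = 0.249 by edgeR). Rad51b (ENSMUSG00000059060, chromosome 12, 79297282 to 79814690, plus strand), a gene of homologous recombination, had 7.29, 7.80, 6.71 and 5.31 CPM in FLASH and 4.24, 3.65 and 3.25 CPM in CONV. Sham skin had 7.66 to 8.46 CPM (0.87 ± 0.19). The estimate was smaller than those of the lower genes, and the spread within groups was smaller as well.

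Mc3r (ENSMUSG00000038537, chromosome 2, 172248492 to 172251114, plus strand), a melanocortin receptor, was the gene with the smallest p on this side. It had 1.48, 1.27, 1.27 and 1.18 CPM in FLASH, 0.649, 0.379 and 0.450 CPM in CONV and 0.798 to 1.19 CPM in sham (1.39 ± 0.29). Scg3 (ENSMUSG00000032181, chromosome 9, 75643189 to 75684056, minus strand), a granule protein of neuroendocrine cells, had 3.99, 3.97, 3.26 and 2.64 CPM in FLASH and 1.64, 1.52 and 1.70 CPM in CONV (1.09 ± 0.23). For Scg3 the CONV libraries were close together and the FLASH libraries within or below the sham range of 3.26 to 4.96 CPM. Efcab1 (ENSMUSG00000068617, chromosome 16, 14906606 to 14981371, plus strand), a calcium-binding protein of cilia, averaged 7.30 ± 2.45 CPM in FLASH and 3.21 ± 0.414 CPM in CONV. Cutal (ENSMUSG00000026870, chromosome 2, 34874396 to 34892132, plus strand) averaged 1.54 ± 0.402 and 0.632 ± 0.122 CPM.

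Clca1 (ENSMUSG00000028255, chromosome 3, 145003817 to 145032776, minus strand), of a family that regulates chloride channels, had the largest estimate among the 10, 2.75 ± 0.65. It had 3.89, 3.19, 1.11 and 1.55 CPM in FLASH and 0.611, 0.379 and 0.0964 CPM in CONV. The last value equals 3 counts, the limit that a count of 0 allows in that library. H2-M5 (ENSMUSG00000024459, chromosome 17, 36984061 to 36989537, minus strand), a nonclassical MHC class I gene, had 14.2, 10.5, 3.86 and 3.25 CPM in FLASH and 1.95, 1.80 and 1.09 CPM in CONV (2.30 ± 0.56). Gm45713 (ENSMUSG00000089989, chromosome 7, 45125922 to 45136231, minus strand), a predicted gene, had 2.93, 4.46, 3.07 and 2.88 CPM in FLASH and 1.03, 0.427 and 0.579 CPM in CONV, but 1.05 CPM in sham replicate 3. Vmn1r5 (ENSMUSG00000090346, chromosome 6, 56970273 to 56988390, plus strand), a vomeronasal receptor gene, had 4.65, 3.71, 3.48 and 3.10 CPM in FLASH and 2.02, 2.13 and 1.96 CPM in CONV (0.87 ± 0.20). H2-M5 and Vmn1r5 belong to large families of similar copies, and their values are uncertain for that reason.

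**Figure D4:**
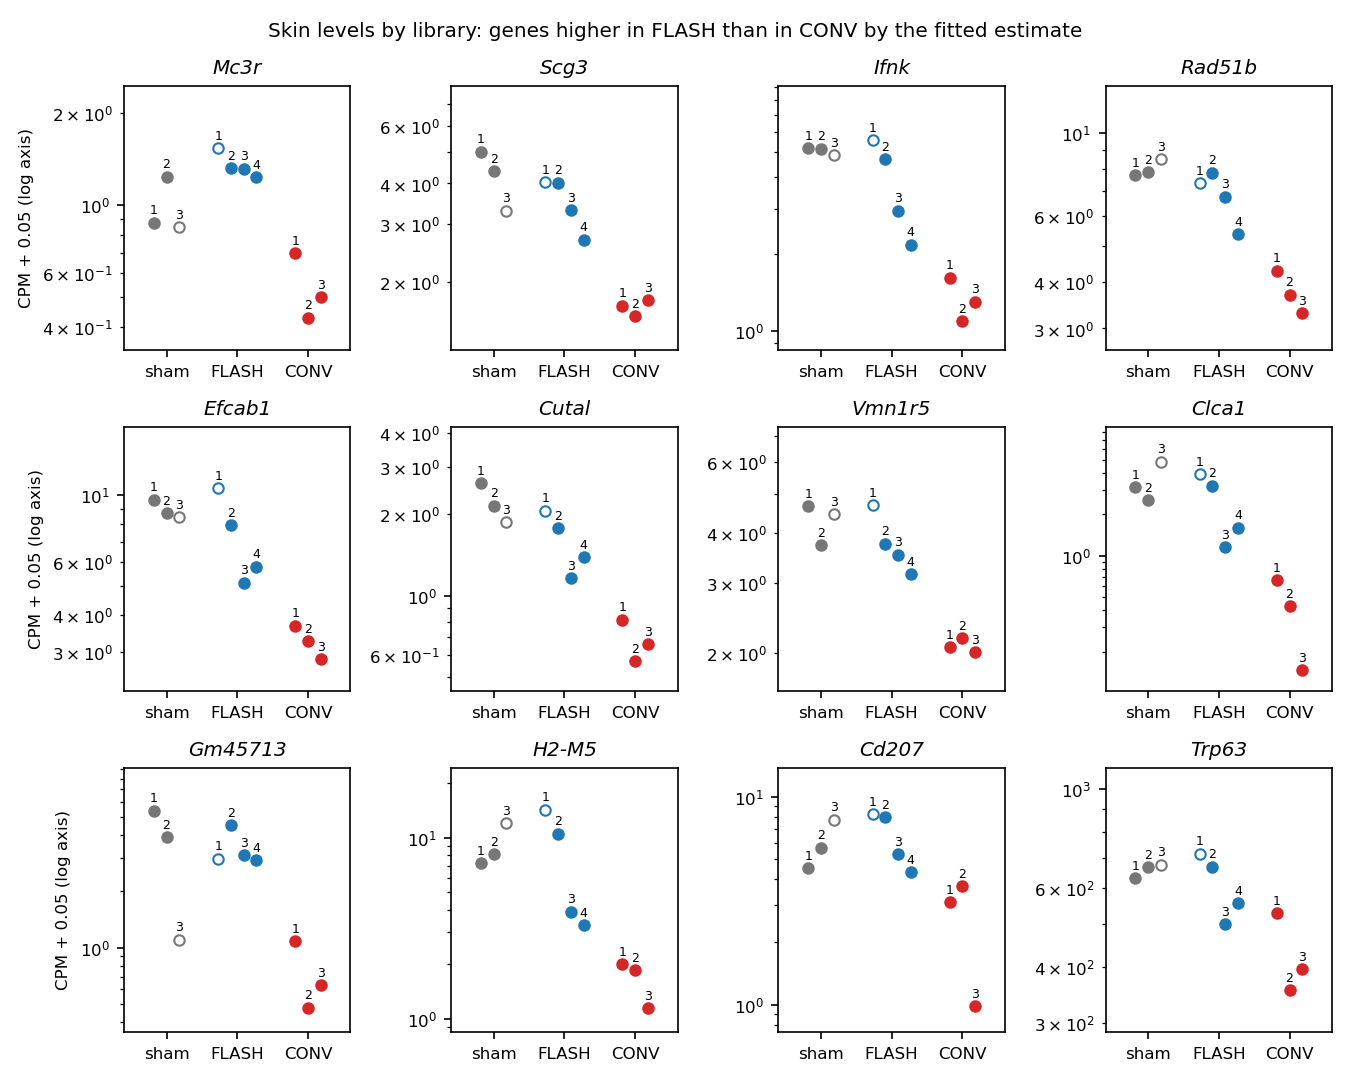
CPM + 0.05 on a log axis (y) of 12 genes with higher estimates in FLASH than in CONV, 1 point per library with its replicate number, by group (x axis: sham, FLASH, CONV; open circles mark files named for another group). CONV lies below every FLASH library for all but Trp63, and FLASH libraries 1 and 2 are the higher FLASH libraries for Ifnk (5.54 and 4.65 CPM) and H2-M5 (14.2 and 10.5 CPM).

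Genes of fat, sebaceous glands and pigment spread widely within groups, and none of their members had an unadjusted p under 0.05. Of 12 adipocyte genes 1 was lower by estimate (median 0.88). Lep, the fat hormone leptin, had 105, 10.3, 2.91 and 19.6 CPM in FLASH and 4.01, 7.01 and 4.53 CPM in CONV, and Adipoq, adiponectin, 70.7, 19.0, 3.80 and 21.5 CPM against 8.97, 21.5 and 4.31 CPM. FLASH library 1, the file named as a sham library, was the high one for both. Plin4, a lipid droplet coat gene, and Car3, an abundant enzyme of fat and muscle, had estimates of 1.44 ± 0.67 and 1.53 ± 1.04. The median of the adipocyte list was 0.16 with files grouped by their library names and 0.32 without FLASH replicate 1. Of 12 sebaceous gland genes 8 were lower by estimate, with a median of -0.12. Scd3, a desaturase of sebocytes, had 111, 59.7, 36.5 and 72.7 CPM in FLASH and 54.9, 22.8 and 12.5 CPM in CONV, and Scd1 2802 ± 1330 against 1652 ± 120 CPM. Medians of hair shaft (0.12), melanocyte (0.35) and fast muscle genes (1.52) turned sign when single libraries were left out. Of 14 core clock genes 2 were lower by estimate (median 0.41). Cry1, a repressor of the clock, was lower without overlap, at 9.20 to 15.4 CPM in FLASH and 17.5 to 24.4 CPM in CONV, and Hlf, an output factor, had 172, 129, 39.9 and 35.7 CPM against 44.1, 41.5 and 25.9 CPM. The sources used here do not state the hour of collection.

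The assignment of files to groups was then varied for the 20 genes of smallest p. With files grouped by library name, edgeR called 0 genes, with 1925 lower and 809 higher at an unadjusted p under 0.05, and 983 and 706 genes were free of overlap by that naming. Without both libraries of disagreeing name it called 0, with 1079 lower and 220 higher at that level. Slfn4 had estimates of -3.86 and -3.66 in these fits, against -3.82 by record. Trem3 had -5.93 and -5.55, Mc3r 1.19 and 1.32, and H2-M5 2.20 and 1.86. None of the 20 genes had an estimate of opposite sign under either assignment. They were chosen by p in the fit by record, from mostly the same libraries, so a kept sign is no separate support. Adding the fast muscle score as a covariate left 0 genes called, with 1751 lower and 776 higher at an unadjusted p under 0.05, and the hair shaft score left 0, with 1905 and 526.

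**Figure D5:**
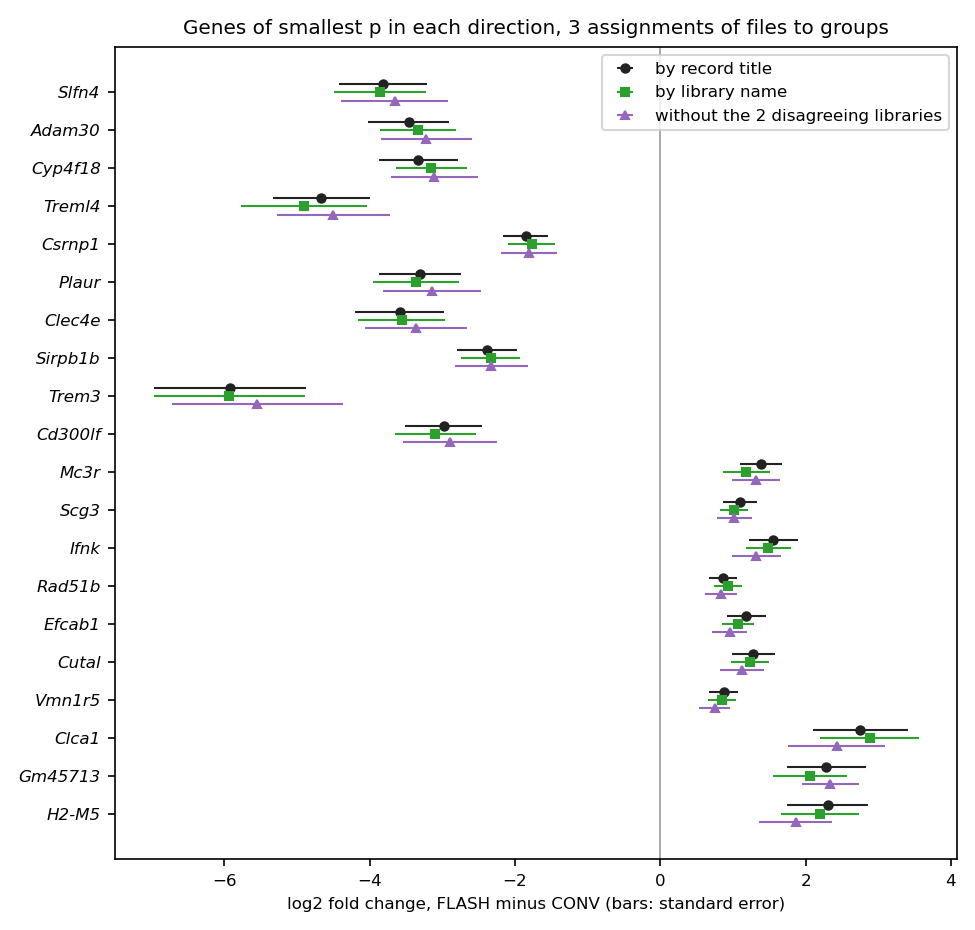
Log2 fold change, FLASH minus CONV (x axis, bars are standard errors), of the 10 lower and 10 higher genes of smallest p (rows), with files grouped by record (black), by library name (green) and without the 2 libraries whose names disagree (purple). The 3 estimates of each gene lie on the same side of 0, for example -3.82, -3.86 and -3.66 for Slfn4. For genes free of overlap under both namings, as the 10 lower ones are, this side was fixed in advance.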

How the data were processed

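The 10 skin libraries (4 FLASH, 3 CONV, 3 sham) were analysed from deposited transcript tables, 1 per library. The authors' estimated counts and TPM values (scaled for transcript length and library size) came from kallisto 0.5.0 with mm10, per the submitters' processing notes. The release of the transcript set is not given in the sources used here, and the deposited counts were not normalized. TPM values were summed to genes and used only for levels per length.

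Transcript identifiers without version matched GENCODE M21 (GRCm38) for 98.5% of 116116 entries, leaving out 0.873% to 1.85% of each library's counts. Estimated counts were summed over 35579 genes and rounded. Because kallisto shares reads among similar transcripts, near-identical copies are uncertain. Totals were 24396463 to 33250762 counts. Limits for a count of 0 (3 counts) cover counting error only. Replicate libraries differed beyond sampling noise in every pair (chi-square of 74.7 to 427 per degree of freedom).

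Genes were tested by quasi-likelihood in edgeR 4.0.16 under R 4.3.3, with robust estimation, TMM scaling, the filterByExpr filter and Benjamini-Hochberg adjustment over 20026 genes, threshold 0.05, with the 3 groups fitted together (biological coefficient of variation 0.428). Standard errors were taken as the estimate over the root of its F statistic. Levels are TMM-scaled CPM. The labels do not say whether replicates were separate animals, so the spread behind each p-value, which is between these samples only, may be technical. Replicate numbers did not pair FLASH and CONV libraries (correlations of same-numbered deviations -0.229, 0.239 and 0.044). The code was tested on simulated data, with a pass condition only at a spread between libraries smaller than that of these data.

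The comparison, the 35 gene lists (675 entries, 652 tested) and the named genes were chosen with earlier results of these data known. Named were the 10 lower and 10 higher protein-coding genes of smallest p with a mean of at least 1 CPM in 1 group, the 2 members of smallest p and the most abundant member of each list, and a fixed set of 14 genes. This took 117 genes, and not all of them are described. A further 15 list members were added after their values were seen. Some neutrophil granule, macrophage and collagen-processing genes were also added then, and are left out of the closing sections and their gene counts. Some list members are not reported here. Blood markers (2 tested) and Y-linked genes (4 tested) served as checks of the samples. Alternatives used DESeq2 1.42.0, limma 3.58.1 (voom with sample weights), other scalings and filters, other assignments of files, tissue scores as covariates, a replicate block and each library left out.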

Additional observations from a re-analysis of the deposited data

Results flagged for a closer look

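Within the 4 FLASH libraries, 26 of 140 values examined (107 genes and 33 list scores) had 1 library set apart from the other 3 past the 95% limit of Dixon's test, which divides the gap to the nearest library by the group's range. With normally distributed values, chance flags about 1 in 20 such groups. Of the 26 flagged values, 24 were gene values in CPM without logarithm, whereas list scores were on the log2 scale. A high library is set apart more readily without logarithm, and the chance rate for such values was not tested. Genes that vary together are also not independent. In 23 of the 26 the library was FLASH library 4, always on the high side.

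Among signal genes, FLASH library 4 stood high for Cxcl2 (1.093 CPM), Ccl3 (0.6074 CPM), Il1b (21.14 CPM), Nlrp3 (4.191 CPM), Tnfrsf1b (33.86 CPM) and Ptgs2 (33.89 CPM). The myeloid genes with the same position were Slfn4 (8.685 CPM), Clec4e (6.499 CPM), Trem1 (4.039 CPM), Trem3 (0.1518 CPM), Cd300lf (7.622 CPM), Cyba (9.718 CPM), S100a8 (32.28 CPM), S100a9 (11.09 CPM) and Saa3 (50.14 CPM). Mast cell genes Hdc (18.43 CPM) and Cma1 (18.4 CPM) shared it, as did the urokinase receptor gene Plaur (14.55 CPM). The wound keratins Krt16 (2542 CPM) and Krt6a (2556 CPM) and the early gene Btg2 (62.47 CPM) completed the set of genes. The scores of matrix proteases and inhibitors (5.534) and of oxidant and antioxidant genes (5.31) in FLASH library 4 were set apart in the same way.

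The 3 other values lay in other libraries. Lep stood high in FLASH library 1 (105.2 CPM), whose file carries a sham name, and Myh4 (9396 CPM) and Gm45713 (4.461 CPM) in FLASH library 2.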

How the results depend on the processing

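Of 107 genes named, 103 kept the sign of the estimate in all 24 alternatives, and the exceptions are given below. Many of the 107 were chosen by small p in these same libraries, so a kept sign was largely fixed in advance for them. Of the alternatives, 23 were planned. The removal of the 2 muscle-rich libraries, sham replicate 1 and FLASH replicate 2, was added after seeing the data. The number of genes called was 0 of 20026 in the main fit and 457 of 20026 with DESeq2, which called 67 of the 107. Because many of the 107 were chosen by small p, that choice raised their share above that of all genes. The number called ran from 0 to 117 with 1 library left out. It was 117 of 20383 without CONV replicate 1 (31 of the 107, with the same limit). Without CONV replicate 3 it was 1 (Pou3f3, higher, outside the named genes). With a replicate block it was 1 (Cxcl2), and the block changed no other call; the samples share only a number. Same-numbered libraries were not the best correlated ones in every case. At an unadjusted p under 0.05, lower genes numbered 943 with limma-voom, 1079 without the 2 disagreeing libraries, 1107 without the muscle-rich ones and 1085 (without CONV replicate 3) to 2381 (without CONV replicate 1) with 1 library left out. Higher genes numbered 199 with limma-voom, 1344 with upper quartile scaling, 481 with the 7 irradiated libraries alone, 220 without the 2 disagreeing libraries, 526 with the hair shaft covariate, 466 without the muscle-rich libraries and 287 (without FLASH replicate 1) to 1192 (without FLASH replicate 4) with 1 left out. Genes lower without overlap numbered 883 to 2499 and higher 647 to 2073 with 1 library left out, the largest both without CONV replicate 1, and the higher ones 1095 with upper quartile scaling and 1054 without the muscle-rich libraries. Fewer libraries overlap less by construction; for the other settings the cause was not tested.

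Signs turned as follows. Cd74 had -0.19 by library name, -0.17 without the disagreeing libraries, -0.13 with the hair covariate and -0.27 to 0.22 with 1 library left out. Krt71 had 0.30 without the disagreeing libraries, 0.68 with the hair covariate, 0.30 without the muscle-rich libraries and -0.71 to 1.06 with 1 left out. Myh4 had -1.13 with limma-voom, -0.39 without the muscle-rich libraries and -0.43 to 3.31 with 1 left out. Mki67 had 0.025 with upper quartile scaling, 0.18 by library name, 0.19 without the disagreeing libraries, 0.14 with the hair covariate, 0.20 without the muscle-rich libraries and -0.46 to 0.20 with 1 left out. Medians of MHC class II genes were 0.14 with limma-voom, 0.059 with upper quartile scaling, 0.012 with the replicate block and -0.30 to 0.27 with 1 left out. Those of lymphocyte markers were -0.040 without the disagreeing libraries and -0.041 to 0.29 with 1 left out, and of epidermal genes -0.41 to 0.12. Hair shaft medians were -1.86 with limma-voom, -3.92 with the replicate block, -0.029 with the hair covariate, -0.41 with the muscle covariate and -0.95 to 1.14 with 1 left out. Sebaceous medians were 0.10 without the muscle-rich libraries and -0.62 to 0.17 with 1 left out, melanocyte medians -0.034 with limma-voom, -0.36 with the replicate block and -0.48 to 0.88. Fast muscle medians were -0.29 with limma-voom, -0.063 with the muscle covariate, -0.78 without the muscle-rich libraries and -0.84 to 2.08 with 1 left out. Prostaglandin medians were 0.037 with upper quartile scaling and -0.26 to 0.027 with 1 left out. Genes with few counts in FLASH skin (Trem3, Treml4, Cxcl2, Adam30) are limited by depth.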
